A study of Homo sapiens with 9 samples.

Results

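The genes described here encode the nuclear subunits of the mitochondrial respiratory chain and ATP synthase. They were taken by symbol among protein-coding genes, which gave 90 candidates, and were then selected on a measured value, a mean level of at least 1 CPM (read counts scaled to a common library total) over the 9 libraries, which left 80 of 60880 gene rows. Complex I contributed 36 of them, complex II 4, complex III 9, complex IV 13 and complex V 18. The choice by symbol also took in COX7A2L, classed as a supercomplex factor, in complex IV and the read-through gene ATP5MF-PTCD1 in complex V. RNA was sequenced from LNCaP, a human prostate cancer line that responds to androgens, in 3 groups of 3 libraries at a labelled time of 24 h. The rescue group carried the knockdown line KD4 with UGT2B28 overexpressed in it and was selected with G418 at 1 mg/mL. The knockdown group was the line KD4 with UGT2B28 knocked down, selected with puromycin at 3 µg/mL. The control group, titled NT, was labelled Control, and the labels tie no selection antibiotic to it. UGT2B28 is a glucuronosyltransferase, an enzyme that attaches glucuronic acid to steroids, androgens among them. Only 1 knockdown line was sequenced and the rescue was made from it, so the line and the knockdown cannot be told apart. Whether the libraries of a group came from different cultures is not stated in the labels, and p-values here reflect library-to-library spread, which may be technical.

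The respiratory chain passes electrons from NADH at complex I and from succinate at complex II to coenzyme Q, then through complex III and cytochrome c to complex IV, where oxygen is reduced. Complexes I, III and IV pump protons across the inner mitochondrial membrane, and complex V uses the gradient to make ATP. Complexes I, III, IV and V combine nuclear subunits with subunits encoded in mitochondrial DNA, while all subunits of complex II are nuclear. Normal prostate epithelium exports citrate in place of oxidising it, and prostate cancer cells oxidise it again.

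The tables held between 20300744 and 26459528 gene counts per library, of which the 80 members took 0.654% to 0.868%. UGT2B28, the targeted gene, had 1124, 1554 and 1857 counts in rescue libraries, 17, 8 and 1 counts in knockdown libraries and 25, 4 and 10 counts in control libraries. Its level was far higher in rescue, and the knockdown and control libraries overlapped at a few counts each, with a log2 change of −0.60 (SE 0.62, adjusted p = 0.518) for knockdown against control. The lower level that the knockdown label implies was therefore not detectable at this depth. All 7 luminal prostate markers were above 1 CPM, and their summed level was 6812 to 7555 CPM in rescue, 6471 to 6880 CPM in knockdown and 3650 to 3922 CPM in control libraries. The neuroendocrine, fibroblast, endothelial and basal sums also had ranges that did not overlap between knockdown and control, while the immune sums overlapped. The sum of 4 neuroendocrine markers was 1149.9 to 1184 CPM in rescue, 687 to 817 CPM in knockdown and 1096 to 1207 CPM in control libraries, with 2 of them above 1 CPM. The median log2 deviation of the 2 tested ones from their own mean over the 9 libraries overlapped between knockdown and control. It was 0.15 to 0.40 in rescue, −0.28 to −0.10 in knockdown and −0.21 to 0.11 in control libraries. Of 6 fibroblast markers 1 was above 1 CPM, and they summed to 59.0 to 71.5 CPM in rescue, 43.6 to 53.4 CPM in knockdown and 63.0 to 72.8 CPM in control libraries. Of 3 endothelial and 3 basal markers 1 each was above 1 CPM, with sums of 5.38 to 7.23 CPM in rescue, 5.15 to 6.25 CPM in knockdown and 1.76 to 3.07 CPM in control libraries for the endothelial and 2.94 to 4.72 CPM in rescue, 3.37 to 5.48 CPM in knockdown and 1.53 to 2.78 CPM in control libraries for the basal ones. Of 5 immune markers, PTPRC of leukocytes and CD3E of T cells were at 0 counts in all 9 libraries and 1 was above 1 CPM, with a sum of 2.16 to 3.15 CPM in rescue, 2.57 to 3.64 CPM in knockdown and 2.36 to 3.18 CPM in control libraries. The part of these marker differences in the results on the respiratory chain was not tested. In bulk RNA, a change in the share of cells that express a gene and a change in RNA per cell cannot be told apart.

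Control replicate 1 stood apart for these genes. Of the 80 members, 61 had their lowest level in it. The median deviation of the members from their own mean over the 9 libraries, on the log2 scale, was −0.42 in control replicate 1 and between −0.05 and 0.14 in the other 8 libraries. By complex, it was −0.42 for complex I, −0.14 for complex II, −0.45 for complex III, −0.56 for complex IV and −0.35 for complex V. The low values extended to other short, well-expressed mRNAs: across 570 tested genes outside the respiratory chain with a transcript of 1000 bases or fewer and a mean of at least 20 CPM, the median was −0.27 in control replicate 1 and −0.02 to 0.13 elsewhere, against −0.01 in control replicate 1 for 6994 longer genes at such levels. Of the members, 45 have a transcript of 1000 bases or fewer. Their median in control replicate 1 was −0.48, and that of the 35 longer members was −0.30. The share of gene counts from mitochondrial DNA was also highest there, at 5.68%, against 4.64% and 4.82% in control replicates 2 and 3. Counts of calls in comparisons with the control, and the fold changes of the genes described, are therefore given with and without this library.

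**Figure D1:**
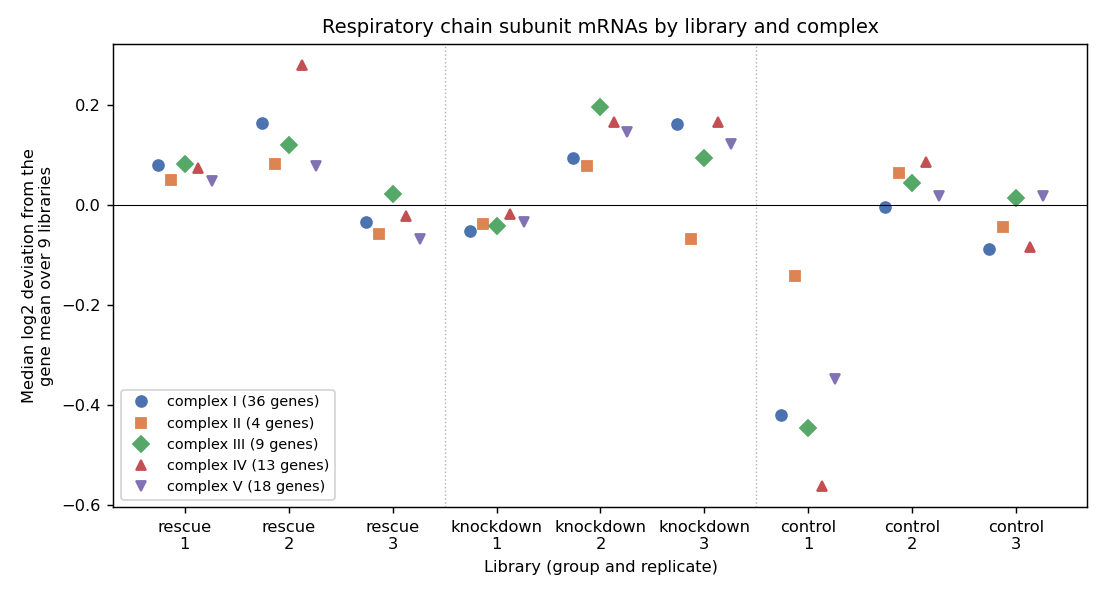
Median log2 deviation (vertical axis) of the genes of each complex from their own mean over 9 libraries, for each library on the horizontal axis, by group and replicate; each symbol is 1 complex. Control replicate 1 lies at −0.14 for complex II and between −0.35 and −0.56 for the other complexes, while every other library lies between −0.09 and 0.28.

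The first comparison asked how the subunit mRNAs stood in the knockdown line against the control. All called members were higher in knockdown: 21 of 80 rose and 0 fell (edgeR quasi-likelihood test, Benjamini-Hochberg adjusted p under 0.05 over 18389 genes). The background was 16.5% of all tested genes called higher and 15.6% called lower, against 26.3% of the members called higher. At an unadjusted p under 0.05, 1 member was lower, and DESeq2 and limma voom also called 0 lower. The median log2 fold change was 0.21 over the members and 0.01 over all tested genes, and 70 of the 80 had a positive value, against 55 without control replicate 1. Without control replicate 1, 10 members were higher and 1, NDUFB4, was lower, the background was 14.2% higher and 13.4% lower, and the members' median was 0.07. All 10 belonged to the 21. The count was also 11 without knockdown replicate 2 and 12 without knockdown replicate 3. Over the omissions of a library, all genes called in this contrast, higher or lower, numbered 4858 to 5788. Called higher under all 9 omissions of a library and all 10 other settings were 7 members: NDUFA5, NDUFAB1 and NDUFB6 of complex I, COX6A1 and NDUFA4L2 of complex IV, and ATP5F1A and ATP5MG of complex V. The share of all tested genes that kept a call in all of these fits is not given here.

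**Figure D2:**
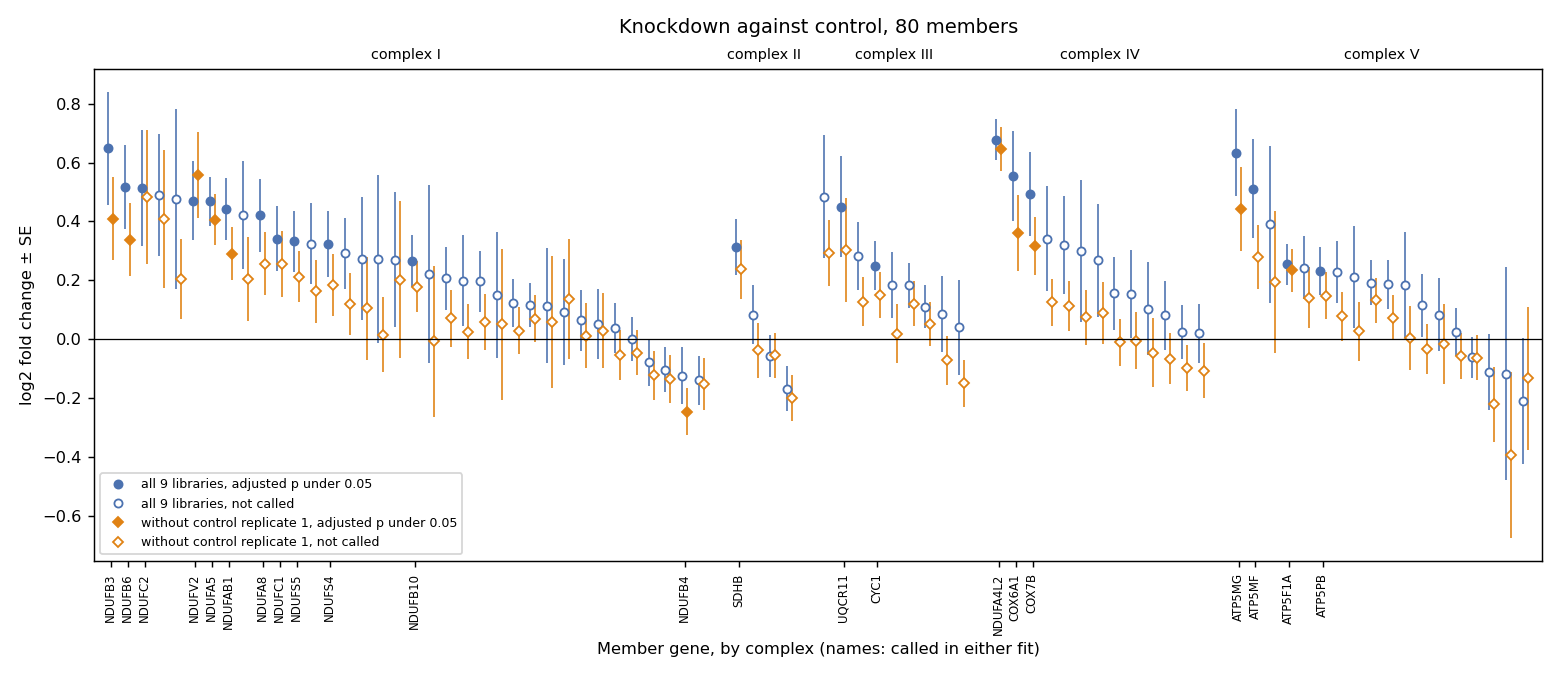
Log2 fold change of each of the 80 members in knockdown against control (vertical axis, whiskers are SE), grouped by complex on the horizontal axis, where genes called in either fit are named; circles use all 9 libraries, diamonds leave out control replicate 1, and filled symbols have an adjusted p under 0.05. The median of the circles is 0.21 and that of the diamonds is 0.07, and 10 of the 21 filled circles stand beside a filled diamond.

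Promoter sequences are shown for 4 members whose calls held under every setting tried in 1 comparison and which have a single entry in the RefSeq promoter table (GRCh38.p14, from 250 bases before to 50 bases after the transcription start): NDUFAB1, COX6A1 and ATP5MG, higher in knockdown than in control, and NDUFS7, lower in rescue than in control. They lie at chr16:23596267-23596566 on the minus strand, chr12:120437863-120438162 on the plus strand, chr11:118401356-118401655 on the plus strand and chr19:1383657-1383956 on the plus strand, in that order, and are written along the gene. Capitals mark letters of 4 motifs searched on both strands: GCGCATGC of NRF1, CCGGAAG of ETS factors such as GABPA, AAGATGGC of YY1 and AAGGTCA of the oestrogen-related receptors, all regulators known for respiratory chain genes.
NDUFAB1: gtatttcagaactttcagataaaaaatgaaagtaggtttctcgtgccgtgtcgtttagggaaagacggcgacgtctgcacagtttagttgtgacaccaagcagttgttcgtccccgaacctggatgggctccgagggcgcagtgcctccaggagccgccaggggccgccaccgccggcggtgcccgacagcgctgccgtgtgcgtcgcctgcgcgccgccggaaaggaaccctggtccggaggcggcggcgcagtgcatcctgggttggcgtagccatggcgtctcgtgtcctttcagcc
COX6A1: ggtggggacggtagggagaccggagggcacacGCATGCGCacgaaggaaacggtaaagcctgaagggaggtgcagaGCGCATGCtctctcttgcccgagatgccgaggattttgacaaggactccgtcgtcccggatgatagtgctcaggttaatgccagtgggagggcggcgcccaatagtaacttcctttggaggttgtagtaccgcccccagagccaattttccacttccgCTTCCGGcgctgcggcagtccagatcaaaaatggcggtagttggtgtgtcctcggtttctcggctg
ATP5MG: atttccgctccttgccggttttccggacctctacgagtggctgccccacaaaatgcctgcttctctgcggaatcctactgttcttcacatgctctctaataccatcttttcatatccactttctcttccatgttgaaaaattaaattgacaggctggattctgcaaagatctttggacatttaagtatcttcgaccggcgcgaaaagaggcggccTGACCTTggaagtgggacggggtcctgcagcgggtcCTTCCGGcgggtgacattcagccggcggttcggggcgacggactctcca
NDUFS7: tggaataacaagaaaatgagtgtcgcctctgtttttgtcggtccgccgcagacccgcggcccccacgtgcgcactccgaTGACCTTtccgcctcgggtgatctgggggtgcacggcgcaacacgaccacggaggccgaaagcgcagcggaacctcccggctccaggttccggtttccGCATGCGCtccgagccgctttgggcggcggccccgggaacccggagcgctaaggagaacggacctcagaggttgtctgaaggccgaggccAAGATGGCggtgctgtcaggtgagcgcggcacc

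COX6A1 held the NRF1 letters at 2 places and the ETS letters at 1, ATP5MG the ETS and oestrogen-related receptor letters, NDUFS7 the NRF1, YY1 and oestrogen-related receptor letters, and NDUFAB1 none of the 4. In the table, 64 of the 80 members had an entry, with 77 promoters in all. The NRF1 letters were in 19.5% of these 77 promoters, against 4.71% of the 16766 promoters of tested genes. For ETS the shares were 28.6% and 16.3%, for YY1 15.6% and 4.52%, and for the oestrogen-related receptors 15.6% and 2.79%. Counted by gene, 4 of the 16 matched members called higher in knockdown than in control held the NRF1 letters, 5 the ETS letters, 3 the YY1 letters and 4 the oestrogen-related receptor letters. These gene shares were 25%, 31.25%, 18.75% and 25%, against 21.9%, 32.8%, 17.2% and 17.2% of the 64 matched members. Among tested genes they were 6.31%, 21.3%, 6.11% and 3.77%, in the same order. Over all 35116 promoters in the table, the shares were 3.05% for NRF1, 10.3% for ETS, 2.89% for YY1 and 3.92% for the oestrogen-related receptors. No letters of different motifs overlapped in a member's promoter. A match is a string of letters and not a measured binding site.

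Complex I, which has the most members, also had the most calls. Of its 36 members, 11 were higher in knockdown than in control, with a median log2 fold change of 0.27, and without control replicate 1 there were 5 higher, 1 lower and a median of 0.11. The background for each complex was 16.5% of all tested genes called higher with all libraries and 14.2% without control replicate 1. Of the 7 core subunits, which carry the redox centres and the catalytic sites, 1 was called higher, and of the 29 accessory subunits, 10. When control replicate 1 was left out the counts were 1 of 7 and 4 of 29, or 14.3% and 13.8%, with 14.2% of all tested genes called higher. NDUFA5 had 84.2, 87.9 and 83.4 CPM in rescue libraries, 77.4, 83.0 and 76.8 CPM in knockdown libraries and 52.5, 55.9 and 63.1 CPM in control libraries. NDUFA5 is an accessory subunit of the arm that extends into the matrix, and its knockdown and control libraries did not overlap. It rose in knockdown by a log2 change of 0.47 (SE 0.082, adjusted p = 5.46e-05), and without control replicate 1 the value was 0.41 (SE 0.086, adjusted p = 0.000283).

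NDUFAB1 had 91.7, 88.2 and 80.6 CPM in rescue libraries, 72.4, 84.3 and 74.9 CPM in knockdown libraries and 45.0, 60.7 and 65.2 CPM in control libraries. NDUFAB1 is the mitochondrial acyl carrier protein, which also serves fatty acid and iron-sulfur cluster synthesis. All its knockdown libraries were above all control libraries, and control replicate 1 was the lowest of the 9. Its log2 fold change in knockdown against control was 0.44 (SE 0.11, adjusted p = 0.00227) and 0.29 (SE 0.089, adjusted p = 0.011) without control replicate 1. NDUFB6 had 26.2, 33.5 and 26.9 CPM in rescue libraries, 27.1, 30.6 and 31.2 CPM in knockdown libraries and 15.5, 25.8 and 21.0 CPM in control libraries. NDUFB6, an accessory subunit of the membrane arm, had non-overlapping knockdown and control libraries, but control replicate 2 came close to knockdown replicate 1. Its log2 fold change was 0.52 (SE 0.14, adjusted p = 0.00664) and 0.34 (SE 0.13, adjusted p = 0.0381) without control replicate 1.

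NDUFV2 had 18.9, 16.6 and 21.2 CPM in rescue libraries, 18.4, 15.5 and 19.9 CPM in knockdown libraries and 14.4, 11.6 and 12.7 CPM in control libraries. NDUFV2, which holds an iron-sulfur cluster beside the NADH site, was the only core subunit called in knockdown against control, at 0.47 (SE 0.13, adjusted p = 0.00787) with all 9 libraries and 0.56 (SE 0.15, adjusted p = 0.00328) without control replicate 1. Its call was lost without knockdown replicate 3 (adjusted p = 0.0538), and 82.9% of its exon bases are shared with another annotated gene, so part of its reads may have been set aside as ambiguous. Among the other core subunits, the log2 fold changes were 0.20 for NDUFS3, 0.12 for NDUFS1, 0.00 for NDUFV1, −0.10 for NDUFS7 and −0.14 for NDUFS8, and none of these 5 was called with all libraries or without control replicate 1, where they ran from −0.15 for NDUFS8 to 0.07 for NDUFS1. The remaining accessory subunits called higher with all libraries were NDUFB3, NDUFA8, NDUFC1, NDUFC2, NDUFB10, NDUFS4 and NDUFS5. Of these 7, only NDUFB3 kept its call without control replicate 1, at 0.41 (SE 0.14, adjusted p = 0.0267), and it lost it without knockdown replicate 2 or 3 (adjusted p up to 0.0687).

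Complex II, succinate dehydrogenase, has 4 subunits and is also an enzyme of the citrate cycle. SDHB had 42.4, 49.1 and 44.4 CPM in rescue libraries, 51.4, 55.6 and 49.0 CPM in knockdown libraries and 37.7, 43.8 and 44.2 CPM in control libraries. SDHB is the iron-sulfur subunit, and its knockdown libraries lay above its control libraries, while rescue replicate 2 reached the knockdown range. It was called higher in knockdown than in control at 0.31 (SE 0.095, adjusted p = 0.0116). The call was lost without control replicate 1, at 0.24 (SE 0.099, adjusted p = 0.0692), and without knockdown replicate 2 (highest adjusted p of the 9 omissions = 0.0692). SDHA, the flavoprotein that oxidises succinate, averaged 158 ± 7.38 CPM in rescue, 147 ± 14.7 CPM in knockdown and 165 ± 5.61 CPM in control (SD, n = 3 each), with −0.17 (SE 0.076, adjusted p = 0.0915) for knockdown against control and −0.20 (SE 0.079, adjusted p = 0.055) without control replicate 1. The membrane anchors SDHC and SDHD had −0.06 (SE 0.071, adjusted p = 0.584) and 0.08 (SE 0.10, adjusted p = 0.582), and −0.06 (SE 0.078, adjusted p = 0.654) and −0.04 (SE 0.093, adjusted p = 0.814) without control replicate 1. With SDHB called and SDHA, SDHC and SDHD not called, the median of complex II was 0.01, and without control replicate 1, where none was called by edgeR, it was −0.05.

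Complex III, which carries electrons from coenzyme Q to cytochrome c, had 2 of 9 members called higher in knockdown than in control, CYC1 and UQCR11. CYC1 had 238, 245 and 212 CPM in rescue libraries, 210.2, 231 and 246 CPM in knockdown libraries and 166, 210.3 and 202 CPM in control libraries. CYC1 is cytochrome c1, the haem subunit that hands electrons to cytochrome c, and its lowest knockdown library and highest control library were almost level. Its log2 fold change was 0.25 (SE 0.085, adjusted p = 0.0238), with 0.15 (SE 0.079, adjusted p = 0.166) without control replicate 1, and the call was also lost without knockdown replicate 2 or 3 and with offsets for transcript length. UQCR11 had 11.4, 13.04 and 14.0 CPM in rescue libraries, 10.3, 12.5 and 11.3 CPM in knockdown libraries and 6.66, 11.1 and 7.31 CPM in control libraries. UQCR11 is a small accessory subunit, and control replicate 2 lay within its knockdown range. The log2 fold change was 0.45 (SE 0.17, adjusted p = 0.0453) with all libraries and 0.30 (SE 0.18, adjusted p = 0.217) without control replicate 1. Its call was lost in 6 of the 9 omissions of a library and in 5 of the 10 other settings, and 31.2% of its exon bases are shared with another annotated gene. All 9 members had positive values, with a median of 0.18, and without control replicate 1 the median was 0.12 with 0 called by edgeR.

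Complex IV, cytochrome c oxidase, had 3 of 13 members called higher in knockdown than in control, and the same 3 without control replicate 1. The median of complex IV was 0.27 with all libraries and 0.07 without that library. NDUFA4L2 had 278, 293 and 288 CPM in rescue libraries, 244, 275 and 247 CPM in knockdown libraries and 153, 158 and 167 CPM in control libraries. NDUFA4L2 is a paralogue of the complex IV subunit NDUFA4 and is known as a hypoxia-induced gene. Its knockdown and rescue libraries all lay above its control libraries, and control replicate 1 was close to replicates 2 and 3. NDUFA4L2 averaged 255 ± 17.0 CPM in knockdown and 159 ± 7.001 CPM in control (SD, n = 3 each), a log2 change of 0.68 (SE 0.071, adjusted p = 1.19e-08) with the lowest adjusted p of the 80 members, and 0.65 (SE 0.076, adjusted p = 4.00e-09) without control replicate 1.

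COX6A1 had 28.6, 30.4 and 22.8 CPM in rescue libraries, 27.6, 28.2 and 30.0 CPM in knockdown libraries and 14.1, 25.0 and 19.5 CPM in control libraries. COX6A1 is the widely expressed isoform of subunit 6A, and its control libraries spread more than those of the other groups. It was higher in knockdown than in control at 0.56 (SE 0.15, adjusted p = 0.00772) and 0.36 (SE 0.13, adjusted p = 0.0311) without control replicate 1. COX7B had 60.3, 68.6 and 63.8 CPM in rescue libraries, 59.6, 78.5 and 74.4 CPM in knockdown libraries and 37.8, 60.4 and 53.0 CPM in control libraries. COX7B, a small membrane subunit, had control replicate 2 above knockdown replicate 1. The log2 fold change of COX7B was 0.49 (SE 0.14, adjusted p = 0.0157) and 0.32 (SE 0.100, adjusted p = 0.0141) without control replicate 1, and its call was lost without knockdown replicate 2 or 3 (adjusted p up to 0.0809). The other 10 members of complex IV had positive values that were not called, and without control replicate 1 only 7 of the 13 members of the complex had a positive value, the 3 called ones among them.

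Among the isoforms of complex IV with a restricted tissue range, those with COX symbols were at or near 0. NDUFA4L2, classed with them here, had a mean of 233 CPM. COX4I2, known from lung, and COX6A2, known from heart and skeletal muscle, had 0 counts in all 9 libraries, while their widely expressed partners COX4I1 and COX6A1 had at least 4325 and 377 counts in each. COX7A1, the heart and muscle partner of COX7A2, averaged 0.285 ± 0.149 CPM in rescue, 0.355 ± 0.223 CPM in knockdown and 0.372 ± 0.0714 CPM in control (SD, n = 3 each). Of the testis-enriched isoforms, COX6B2 had 2, 0 and 4 counts and COX8C had 4, 6 and 2 counts in all over the rescue, knockdown and control libraries. COX7B2, the testis isoform of COX7B, had 15, 5 and 4 counts in rescue libraries, 8, 15 and 12 in knockdown libraries and 1, 0 and 0 in control libraries. Its counts pooled over the libraries of a group and divided by their pooled gene counts were 23.2 times the control's in rescue (exact 95% interval 3.78 to 952) and 33.4 times in knockdown (5.61 to 1355), intervals that cover counting error only. The partners of these isoforms did not show such ratios: COX6B1 averaged 110.1 ± 13.3, 119 ± 9.13 and 112 ± 20.7 CPM and COX8A 70.1 ± 14.4, 62.1 ± 1.83 and 57.9 ± 11.9 CPM in rescue, knockdown and control (SD, n = 3 each).

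Complex V, the ATP synthase, had 4 of 18 members called higher in knockdown than in control: ATP5F1A in the F1 head, ATP5PB in the peripheral stalk, and ATP5MG and ATP5MF in the membrane part. ATP5F1A had 438, 440.4 and 408 CPM in rescue libraries, 457, 463 and 453 CPM in knockdown libraries and 374, 378 and 399 CPM in control libraries. ATP5F1A is the alpha subunit of the catalytic head. Its 3 knockdown libraries lay close together above all control libraries, with 0.25 (SE 0.069, adjusted p = 0.00539) and 0.23 (SE 0.074, adjusted p = 0.014) without control replicate 1. ATP5MG had 17.8, 20.9 and 19.6 CPM in rescue libraries, 15.7, 19.6 and 17.2 CPM in knockdown libraries and 8.31, 13.2 and 12.5 CPM in control libraries. ATP5MG is subunit g, a small membrane subunit, and its control libraries were below all others, with replicate 1 the lowest. The log2 fold change of ATP5MG was 0.63 (SE 0.15, adjusted p = 0.00145) and 0.44 (SE 0.14, adjusted p = 0.0154) without control replicate 1. ATP5MF, subunit f, had 0.51 (SE 0.17, adjusted p = 0.0317), and ATP5PB, subunit b, had 0.23 (SE 0.082, adjusted p = 0.0298). Neither kept its call without control replicate 1, at 0.28 (SE 0.11, adjusted p = 0.0502) and 0.15 (SE 0.080, adjusted p = 0.18). ATP5MF, which shares 46.2% of its exon bases with the read-through gene ATP5MF-PTCD1, was also not called without any 1 of the knockdown libraries or rescue replicate 3, nor ATP5PB without control replicate 3 or knockdown replicate 2. The c-ring genes ATP5MC1, ATP5MC2 and ATP5MC3, which encode the same mature ring protein, had 0 calls in this contrast by edgeR. Without control replicate 1, complex V kept 2 higher calls, ATP5F1A and ATP5MG, and its median was 0.05 against 0.19 with all libraries.

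**Figure D3:**
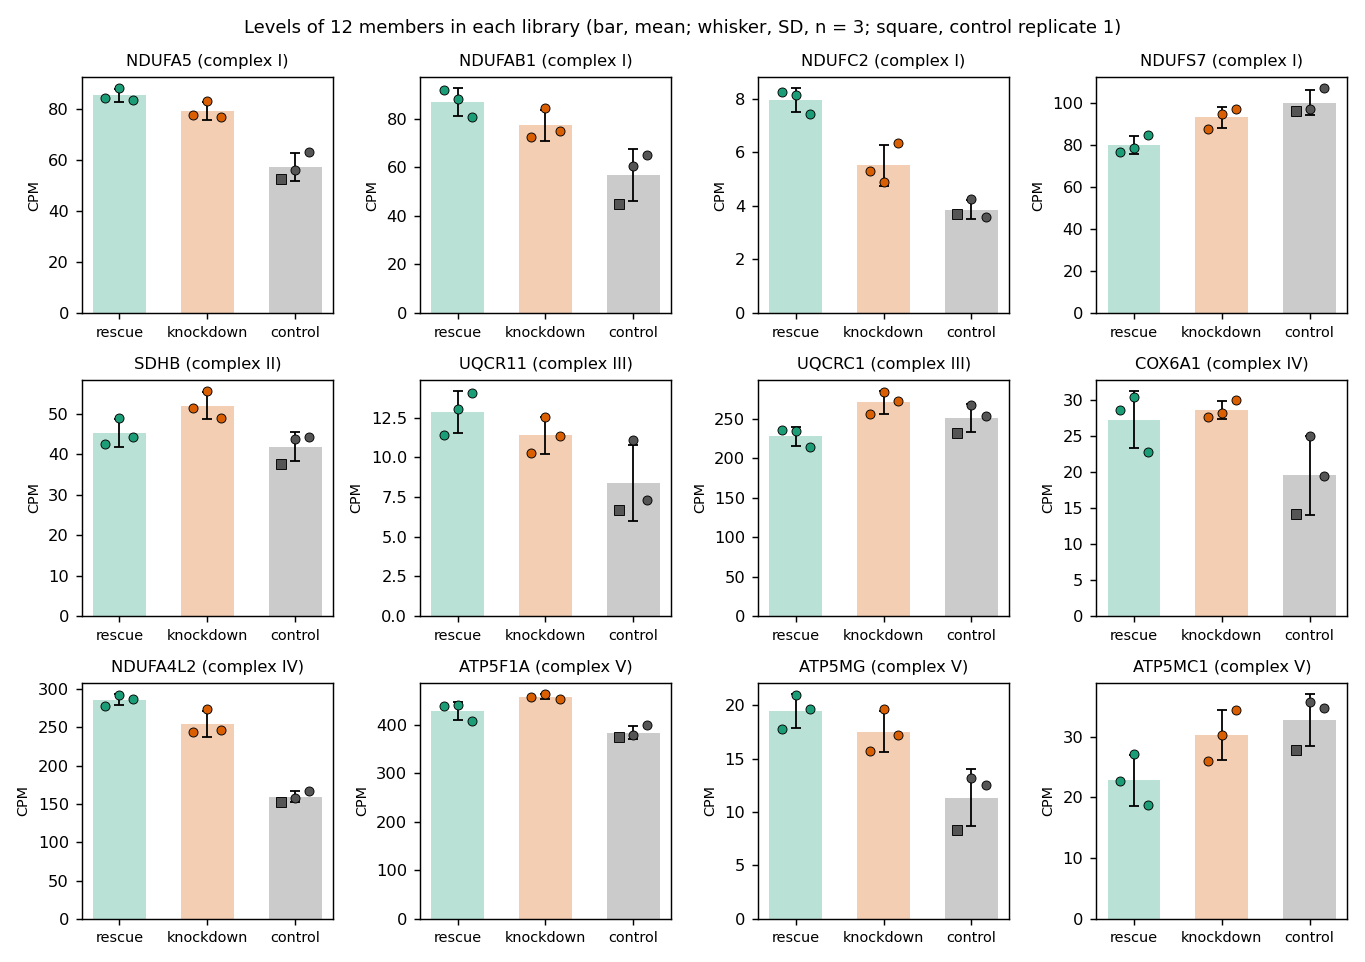
CPM (vertical axis, from 0) of 12 members in rescue, knockdown and control libraries; points are libraries, bars are means, whiskers are SD (n = 3) and the square is control replicate 1. NDUFA4L2 runs from 153 to 167 CPM in control with the lowest of the other libraries at 244 CPM, while COX6A1 ranges from 14.1 to 25.0 CPM within the control.

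The second comparison asked whether overexpression of UGT2B28 in the knockdown line moved these mRNAs. Few changed: the rescue line had 0 of 80 members called higher than the knockdown line and 2 called lower, on a background of 5.2% higher and 4.88% lower. Unadjusted, 4 were higher and 9 lower with a p under 0.05, DESeq2 called 1 higher and 2 lower, and limma voom called 0 higher and 1 lower. The median log2 fold change was 0.00, and the values ran from −0.41 to 0.53. No member changed in one direction between knockdown and control and was then called the other way between rescue and knockdown, contrasts that share the knockdown libraries. Only the 2 members called in rescue against knockdown could have met this. The share of all tested genes that did so is not given here.

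UQCRC1 had 236, 235 and 214 CPM in rescue libraries, 256, 284 and 273 CPM in knockdown libraries and 232, 268 and 253 CPM in control libraries. UQCRC1 is a core protein of complex III, and all its rescue libraries were below all knockdown libraries. It fell in rescue against knockdown by a log2 change of −0.25 (SE 0.073, adjusted p = 0.0282), and its call was lost in 5 of the 9 omissions, of knockdown replicate 2 or 3 or any rescue library (adjusted p up to 0.161). ATP5MC1 had 22.6, 27.1 and 18.8 CPM in rescue libraries, 26.0, 30.4 and 34.4 CPM in knockdown libraries and 27.8, 35.7 and 34.7 CPM in control libraries. ATP5MC1 is 1 of the genes for the c-ring of complex V, and its rescue and knockdown libraries overlapped. Its log2 fold change in rescue against knockdown was −0.41 (SE 0.13, adjusted p = 0.0476), and the call was lost without control replicate 3, knockdown replicate 2 or 3, or rescue replicate 1 or 3 (adjusted p up to 0.268), and in 3 of the 10 other settings. With control replicate 1 left out, whose spread enters the fit, 5 members were lower in rescue, these 2 with ATP5MC2, NDUFB7 and NDUFS7, on a background of 6.52% higher and 6.12% lower. The largest value was that of NDUFC2, another complex I subunit, at 0.53 (SE 0.19, adjusted p = 0.0769).

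The third comparison set the rescue line against the control, sharing libraries with the other contrasts. Here 20 members rose and 4 fell, on a background of 19% of tested genes higher and 18.8% lower, against 25% and 5% of the members. The median was 0.23. Without control replicate 1, 13 were higher and 10 lower, or 16.3% and 12.5% of the members, against 17.1% and 17% of the tested genes, and the median was 0.08. The count higher was 32 without control replicate 2 and 12 without rescue replicate 2. All genes called in this contrast, higher or lower, numbered 5809 to 6995 over the omissions of a library. Of the 21 members higher in knockdown than in control, 15 were also higher in rescue than in control, a count that rests on the same 3 control libraries. Without control replicate 1, the members higher in both were ATP5MG, NDUFA4L2, NDUFA5, NDUFAB1, NDUFB3 and NDUFV2. The share of all tested genes higher in both is not given here, so the count of 15 has no background. Called higher in rescue than in control under every setting and omission were 11 members: NDUFA5, NDUFAB1, NDUFB3, NDUFC1, NDUFC2, NDUFS1 and NDUFV2 of complex I, UQCR11, NDUFA4L2, ATP5MC3 and ATP5MG. Called lower under all of them were 3: NDUFS7, ATP5F1D and ATP5MC1. No share of all tested genes under the same fits is set beside these 2 counts.

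**Figure D4:**
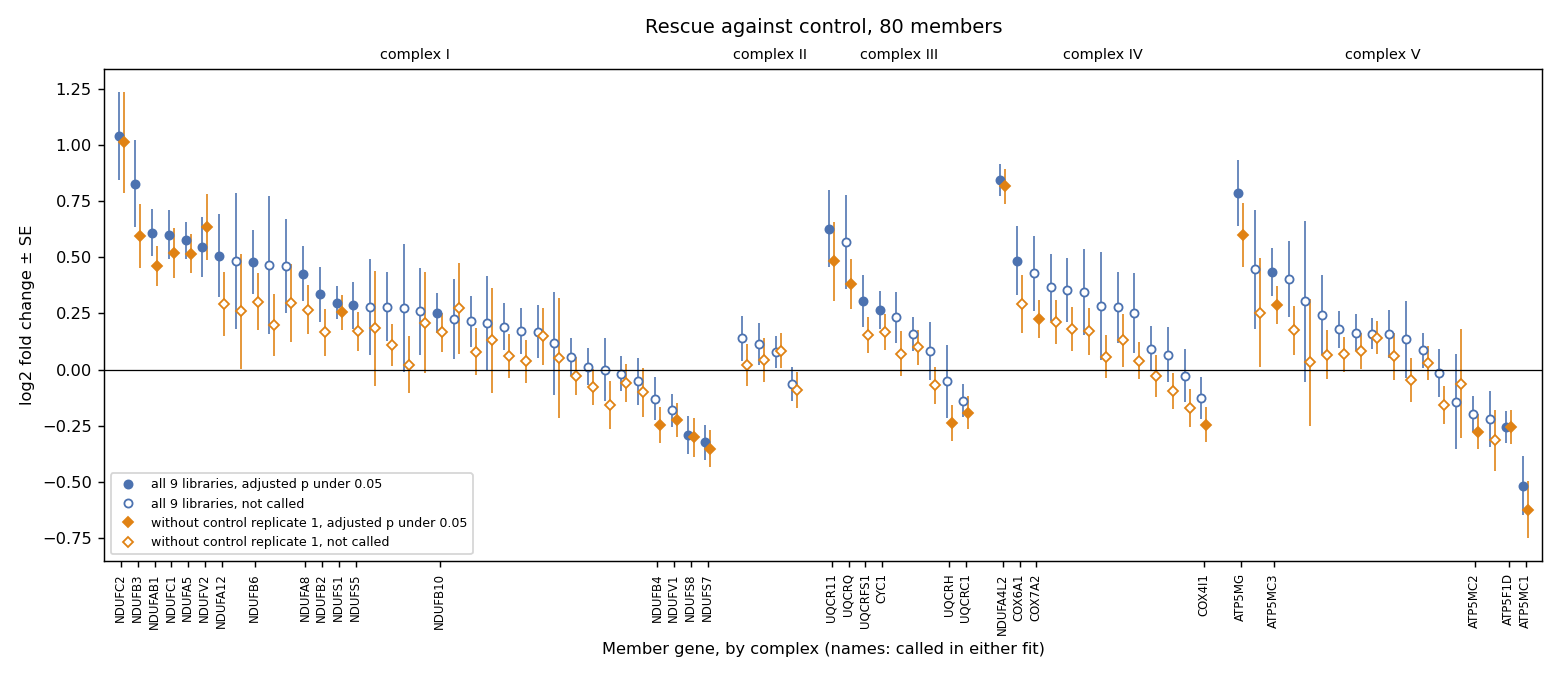
Log2 fold change of the 80 members in rescue against control (vertical axis, whiskers are SE), by complex on the horizontal axis, where genes called in either fit are named; circles use all 9 libraries, diamonds leave out control replicate 1, filled symbols have an adjusted p under 0.05. With all libraries 20 circles are filled above 0 and 4 below, and without control replicate 1 there are 13 filled diamonds above 0 and 10 below.

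In complex I, 13 members were higher and 2 lower in rescue than in control, and 7 higher and 4 lower without control replicate 1. The background for each complex was 19% higher and 18.8% lower with all libraries, and 17.1% and 17% without that library. NDUFC2 had 8.23, 8.14 and 7.42 CPM in rescue libraries, 5.30, 4.88 and 6.35 CPM in knockdown libraries and 3.71, 4.27 and 3.59 CPM in control libraries. NDUFC2 is a membrane-arm accessory subunit, with rescue libraries above all knockdown libraries and knockdown libraries above all control libraries. It had the highest value of the members in this contrast, 1.04 (SE 0.19, adjusted p = 8.88e-05) and 1.01 (SE 0.23, adjusted p = 0.000404) without control replicate 1, at a low level of counts, and 19% of its exon bases are shared with other annotated genes. Against control, knockdown had 0.51 (SE 0.20, adjusted p = 0.0461), a call lost in 7 of the 9 omissions of a library and in 6 of the 10 other settings. Without control replicate 1 it was 0.48 (SE 0.23, adjusted p = 0.114).

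NDUFC1 had 47.3, 56.1 and 46.3 CPM in rescue libraries, 36.7, 40.9 and 47.5 CPM in knockdown libraries and 29.2, 37.0 and 32.7 CPM in control libraries. NDUFC1, another membrane-arm subunit, was higher in rescue than in control in every library, at 0.60 (SE 0.11, adjusted p = 6.49e-05) and 0.52 (SE 0.11, adjusted p = 0.000253) without control replicate 1. NDUFA5 and NDUFAB1, whose levels are given above, had 0.58 (SE 0.082, adjusted p = 2.02e-06) and 0.61 (SE 0.11, adjusted p = 5.96e-05), and 0.52 (SE 0.087, adjusted p = 5.36e-06) and 0.46 (SE 0.089, adjusted p = 5.05e-05) without control replicate 1. The core subunit NDUFS1, which holds several iron-sulfur clusters, averaged 109 ± 1.48 CPM in rescue and 88.6 ± 5.49 CPM in control (SD, n = 3 each), and rose by 0.30 (SE 0.074, adjusted p = 0.00204), or 0.25 (SE 0.080, adjusted p = 0.0108) without control replicate 1.

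The 2 complex I members that fell were core subunits of the arm that hands electrons to coenzyme Q. NDUFS7 had 76.7, 78.9 and 84.8 CPM in rescue libraries, 87.8, 94.98 and 97.5 CPM in knockdown libraries and 96.5, 97.5 and 107 CPM in control libraries. NDUFS7 holds the last iron-sulfur cluster of the chain in complex I, and its rescue libraries were below all control libraries. Its log2 fold change in rescue against control was −0.32 (SE 0.077, adjusted p = 0.0013) and −0.35 (SE 0.082, adjusted p = 0.000674) without control replicate 1, and 37.9% of its exon bases overlap another annotated gene on the opposite strand. NDUFS8 had 91.5, 103 and 102 CPM in rescue libraries, 101, 109.8 and 118 CPM in knockdown libraries and 119, 136 and 107 CPM in control libraries. NDUFS8, its iron-sulfur neighbour, fell, by a log2 change of −0.29 (SE 0.085, adjusted p = 0.00704), with rescue below control in every library. Without control replicate 1 the value was −0.30 (SE 0.088, adjusted p = 0.00602). The call of NDUFS8 was lost without control replicate 2 or rescue replicate 1 (adjusted p up to 0.0903). Not called with all libraries but lower without control replicate 1 were NDUFB4, at −0.25 (SE 0.081, adjusted p = 0.0145) against −0.13 (SE 0.097, adjusted p = 0.317) with all libraries, and the core subunit NDUFV1, at −0.23 (SE 0.076, adjusted p = 0.0185) against −0.18 (SE 0.073, adjusted p = 0.0511).

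Complex II had 0 of 4 members called in rescue against control by edgeR, with values from −0.06 to 0.14, and none without control replicate 1, and SDHB had 0.11 (SE 0.095, adjusted p = 0.376) and 0.04 (SE 0.099, adjusted p = 0.79) in these fits. In complex III, CYC1, UQCR11 and UQCRFS1 were higher. UQCR11 had 0.63 (SE 0.17, adjusted p = 0.00432) and 0.48 (SE 0.18, adjusted p = 0.0292) without control replicate 1. CYC1 had 0.27 (SE 0.085, adjusted p = 0.014), and the Rieske iron-sulfur protein UQCRFS1 had 0.31 (SE 0.12, adjusted p = 0.0487). Neither CYC1 nor UQCRFS1 was called without control replicate 1, at 0.17 (SE 0.079, adjusted p = 0.0984) and 0.15 (SE 0.082, adjusted p = 0.151), and CYC1 was also not called without rescue replicate 1 or 2, nor UQCRFS1 in 6 of the 9 omissions and 3 of the 10 other settings. Leaving out control replicate 1 also added calls: UQCRQ, a small subunit, was higher at 0.38 (SE 0.11, adjusted p = 0.00991), and UQCRH, the hinge protein, and UQCRC1 were lower at −0.24 (SE 0.079, adjusted p = 0.016) and −0.19 (SE 0.075, adjusted p = 0.0417). With all libraries the values of these 3 were 0.57 (SE 0.21, adjusted p = 0.0722), −0.05 (SE 0.16, adjusted p = 0.84) and −0.14 (SE 0.073, adjusted p = 0.144).

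In complex IV, NDUFA4L2 had 0.84 (SE 0.071, adjusted p = 1.22e-10) and 0.82 (SE 0.076, adjusted p = 7.01e-12) without control replicate 1. COX6A1 had 0.49 (SE 0.15, adjusted p = 0.0158), and its call was lost without control replicate 1, at 0.29 (SE 0.13, adjusted p = 0.075), and without rescue replicate 1 or 2. Not called with all libraries but called without control replicate 1 were COX7A2, higher at 0.22 (SE 0.084, adjusted p = 0.0344) against 0.43 (SE 0.17, adjusted p = 0.0704) with all libraries, and COX4I1, lower at −0.25 (SE 0.078, adjusted p = 0.0121) against −0.13 (SE 0.093, adjusted p = 0.303). NDUFA4, the paralogue of NDUFA4L2 and a subunit of complex IV, averaged 106 ± 6.29 CPM in rescue, 113 ± 4.03 CPM in knockdown and 89.3 ± 24.9 CPM in control (SD, n = 3 each) and was not called in any of the 3 contrasts, with or without control replicate 1.

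In complex V, ATP5MG and ATP5MC3 were higher and ATP5MC1 and ATP5F1D lower in rescue than in control, so that 2 genes of the c-ring differed in direction. ATP5MC1, whose levels are given above, fell, with a log2 change of −0.52 (SE 0.13, adjusted p = 0.00254) and −0.62 (SE 0.13, adjusted p = 0.000132) without control replicate 1. ATP5MC3 had 119, 127 and 123 CPM in rescue libraries, 96.0, 113 and 111 CPM in knockdown libraries and 71.8, 94.1 and 107 CPM in control libraries. ATP5MC3, a gene for the same mature c-ring protein, was higher in rescue than in control in every library, at 0.43 (SE 0.11, adjusted p = 0.00271) and 0.29 (SE 0.083, adjusted p = 0.00581) without control replicate 1. ATP5F1D had 149, 161 and 142 CPM in rescue libraries, 166, 169 and 182 CPM in knockdown libraries and 180.1, 179 and 180.1 CPM in control libraries. ATP5F1D, the delta subunit of the F1 stalk, had control libraries within a narrow range above all rescue libraries, and fell, with a log2 change of −0.26 (SE 0.071, adjusted p = 0.00495) and −0.25 (SE 0.076, adjusted p = 0.00753) without control replicate 1. ATP5MG had 0.79 (SE 0.15, adjusted p = 9.85e-05) and 0.60 (SE 0.14, adjusted p = 0.000754) without control replicate 1. In that fit ATP5MC2, the remaining c-ring gene, was also lower, at −0.28 (SE 0.078, adjusted p = 0.00447), against −0.20 (SE 0.081, adjusted p = 0.0549) with all libraries.

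The level threshold set the edge of the group. The members just above 1 CPM were NDUFB8 with a mean of 3.77 CPM, ATP5MF-PTCD1, a read-through transcript, with 5.01 CPM, and NDUFA11 with 5.04 CPM. Just below it were NDUFA7 with 0.871 CPM, COX7A1 with 0.339 CPM and COX7B2 with 0.287 CPM. All 80 members passed the filter on low counts, as did 3 of the 10 candidates below the threshold. NDUFB8, ATP5MF-PTCD1, NDUFA11, NDUFV2 and ATP5PO share at least 50% of their exon bases with other annotated genes, so their levels are uncertain, and 45 members share none. UQCRHL, a near-identical copy of UQCRH, had 19, 11 and 6 counts in all over the rescue, knockdown and control libraries, and ATP5MGL, a copy of ATP5MG, had 3, 0 and 5. UQCRH averaged 185 ± 16.6, 197 ± 15.4 and 192 ± 45.8 CPM in those groups (SD, n = 3 each).

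Factors that assemble the complexes are not part of the finished enzymes. Of 47 tested, 17 were higher and 2 lower in knockdown than in control, or 36.2% and 4.26%, against 16.5% and 15.6% of all tested genes. With control replicate 1 left out, 8 were higher and 1 lower of 48 tested, or 16.7% and 2.08%, against 14.2% and 13.4%. Of 15 complex I factors, 5 were higher and 0 lower by edgeR, and 2 higher without control replicate 1, or 13.3%. Those 2 were NUBPL, which delivers iron-sulfur clusters to complex I, with 0.75 (SE 0.15, adjusted p = 0.000241) and 0.72 (SE 0.17, adjusted p = 0.00114) without that library, and NDUFAF4 with 0.66 (SE 0.18, adjusted p = 0.00494) and 0.62 (SE 0.21, adjusted p = 0.0204). Of 18 complex IV factors, 6 were higher and 1, COX19, was lower, and 3 were higher and 0 lower without control replicate 1. COX20 had 0.35 (SE 0.077, adjusted p = 0.000711) and 0.31 (SE 0.083, adjusted p = 0.00314) without it, while the copper chaperone COX17, with 0.44 (SE 0.14, adjusted p = 0.0152), lost its call at 0.28 (SE 0.12, adjusted p = 0.0852). Among 6 complex III factors, LYRM7, BCS1L and UQCC2 were higher and UQCC1 was lower, and without control replicate 1 the calls of LYRM7, BCS1L and UQCC1 remained. LYRM7 had 0.63 (SE 0.12, adjusted p = 0.000186) and 0.70 (SE 0.13, adjusted p = 6.57e-05), and UQCC1 −0.62 (SE 0.15, adjusted p = 0.00172) and −0.61 (SE 0.17, adjusted p = 0.00383). Of 4 complex II factors, SDHAF3 was called, at 0.45 (SE 0.17, adjusted p = 0.042), and none was called without control replicate 1. Of 4 complex V factors and inhibitors, ATPAF2 and TMEM70 were higher, and ATPAF2 alone without control replicate 1.

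In rescue against knockdown, 0 of the 47 assembly factors were higher by edgeR and 1 was lower, NDUFAF3 of complex I, at −0.25 (SE 0.075, adjusted p = 0.032). In the fit without control replicate 1, NDUFAF8 was higher and NDUFAF3 and BCS1L were lower. In rescue against control, 16 were higher and 3 lower, or 34.0% and 6.38%, against 19% and 18.8% of all tested genes. Leaving out control replicate 1 gave 10 higher and 4 lower, or 20.8% and 8.33%, against 17.1% and 17%. The 3 lower ones were FOXRED1 with −0.43 (SE 0.11, adjusted p = 0.00168), UQCC1 with −0.59 (SE 0.15, adjusted p = 0.00209) and NDUFAF3 with −0.19 (SE 0.075, adjusted p = 0.0439). The calls of FOXRED1 and UQCC1 remained without control replicate 1, at −0.48 (SE 0.11, adjusted p = 0.000718) and −0.58 (SE 0.17, adjusted p = 0.00473), and that of NDUFAF3 was lost, at −0.17 (SE 0.082, adjusted p = 0.0995).

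Cytochrome c and coenzyme Q carry electrons between the complexes, and 12 genes of cytochrome c and coenzyme Q synthesis were listed. Of these 12 genes, 3, or 25%, were higher and 0 lower in knockdown than in control by edgeR, with all libraries (background 16.5% higher) and without control replicate 1 (14.2%), and 6 were higher and 1 lower in rescue than in control (5 and 1 without control replicate 1, where CYCS was not called). COQ8A, an atypical kinase required for coenzyme Q synthesis, averaged 113 ± 0.0850 CPM in rescue, 98.6 ± 6.47 CPM in knockdown and 63.2 ± 2.65 CPM in control (SD, n = 3 each), with 0.64 (SE 0.076, adjusted p = 1.04e-07) in knockdown against control and 0.62 (SE 0.083, adjusted p = 1.06e-07) without control replicate 1. COQ5 and COQ2 had 0.45 (SE 0.092, adjusted p = 0.000289) and 0.60 (SE 0.15, adjusted p = 0.00255), and 0.48 (SE 0.10, adjusted p = 0.000312) and 0.63 (SE 0.17, adjusted p = 0.0036) without that library. CYCS, cytochrome c itself, had 0.14 (SE 0.082, adjusted p = 0.221) in knockdown and 0.27 (SE 0.082, adjusted p = 0.0101) in rescue, both against control, and 0.05 (SE 0.080, adjusted p = 0.693) and 0.19 (SE 0.080, adjusted p = 0.0662) without control replicate 1.

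Of 10 transcriptional regulators of mitochondrial genes, 1 was called in knockdown against control, TFAM, which packages mitochondrial DNA and takes part in its transcription. The background in this contrast was 16.5% of all tested genes called higher and 15.6% called lower. TFAM had 0.30 (SE 0.091, adjusted p = 0.0111) and 0.26 (SE 0.096, adjusted p = 0.0409) without control replicate 1. NRF1, whose motif is among those searched in the promoters, had −0.22 (SE 0.12, adjusted p = 0.147) in knockdown against control and −0.29 (SE 0.12, adjusted p = 0.0462) in rescue against control, where it was called lower. When control replicate 1 was left out these were −0.25 (SE 0.13, adjusted p = 0.141) and −0.32 (SE 0.13, adjusted p = 0.0473). PPARGC1A, a coactivator of mitochondrial biogenesis, averaged 0.725 ± 0.352 CPM in rescue, 0.507 ± 0.358 CPM in knockdown and 0.114 ± 0.0242 CPM in control (SD, n = 3 each). It had 22, 18 and 10 counts in rescue libraries, 8, 7 and 20 in knockdown libraries and 3, 3 and 2 in control libraries, and was called higher in rescue than in control at 2.60 (SE 0.81, adjusted p = 0.0115) and 2.59 (SE 0.97, adjusted p = 0.0336) without control replicate 1. GABPA, ESRRA and YY1 were not called in any contrast.

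The 13 mRNAs encoded in mitochondrial DNA, which supply the partner subunits, were lower in knockdown than in control. All 13 fell in knockdown against control, with a median log2 fold change of −0.86 and of −0.75 without control replicate 1. In rescue against knockdown, 11 rose (10 without control replicate 1), with a median of 0.43, where 0 of the 80 nuclear members were called higher by edgeR. In rescue against control 9 fell and 0 rose, with a median of −0.52, and without control replicate 1 the counts were also 9 and 0, with a median of −0.40. Of all tested genes, 15.6% were called lower in knockdown against control, 5.2% higher in rescue against knockdown and 18.8% lower in rescue against control. Without control replicate 1 these shares were 13.4%, 6.52% and 17%. The difference between the nuclear and the mitochondrial genes was not tested.

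**Figure D5:**
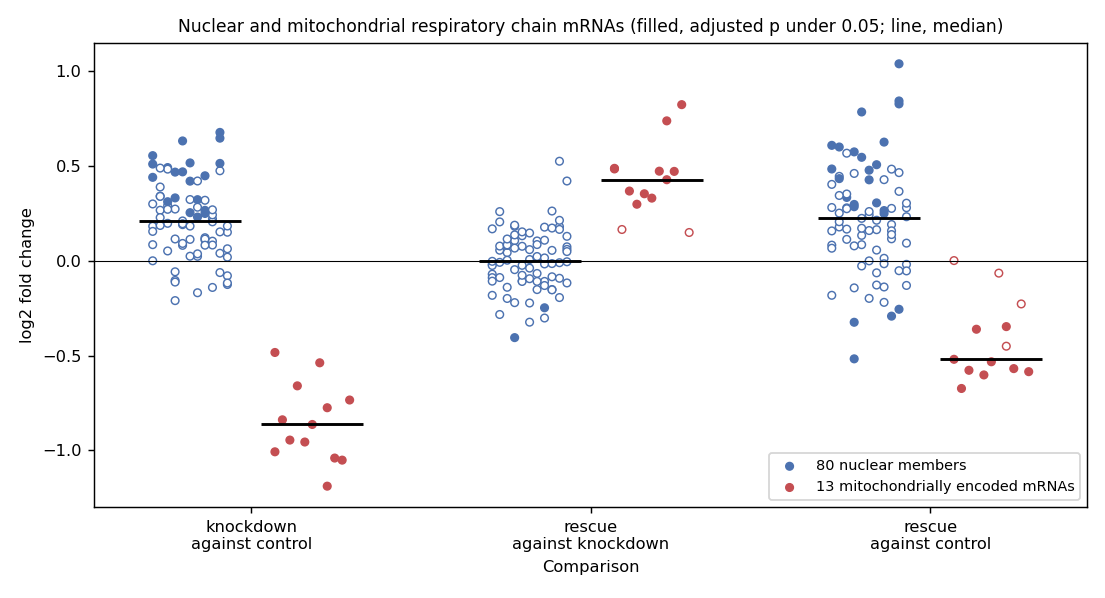
Log2 fold change (vertical axis) of the 80 nuclear members and the 13 mitochondrially encoded mRNAs in the 3 comparisons on the horizontal axis; each point is a gene, filled at an adjusted p under 0.05, and lines are medians. In knockdown against control the nuclear median is 0.21 and the mitochondrial median −0.86, and in rescue against knockdown they are 0.00 and 0.43.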

How the data were processed

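Each library has a deposited table of raw, unnormalised gene counts. The tools named, per the submitters' processing notes, are HISAT2, HTSeq, cutadapt and FastQC, with the build hg19. Their roles, versions and strand setting are not given in sources at hand, so reads of a gene and an overlapping antisense gene cannot be told apart. Rows that name no gene held 57.1% to 59.7% of each table and were left out. Symbols came from the symbol table at hand, and gene types, transcript lengths and exon overlaps from GENCODE v29, with no coordinates carried between builds. The analysis used edgeR 4.0.16 under R 4.3.3: filterByExpr with a minimum count of 10 (18389 genes), TMM scaling and a robust quasi-likelihood fit of all 9 libraries (6 residual degrees of freedom). All adjusted p-values of single genes are Benjamini-Hochberg values of this test over all tested genes. Each SE is the size of the log2 change divided by the root of the F statistic. CPM values use TMM-adjusted library sizes. DESeq2 1.42.0 and limma 3.58.1 were alternatives. The fits were tested on simulated data. Named were, per comparison and complex, up to 4 called members in each direction with the smallest adjusted p, all complex II genes, isoform pairs, and the members and candidates nearest the threshold of 1 CPM; other members named, and the list genes given with values outside the respiratory chain subunits, were chosen after their values were seen. The members and lists were chosen with earlier results of these data known. The values of 1 gene are not reported here.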

Additional observations from a re-analysis of the deposited data

How the results depend on the processing

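Counts of called members moved with the settings as follows, and the cause was not tested. In knockdown against control, 21 higher became 32 with a replicate block, and 0 lower became 1 with total counts or a replicate block, 3 with offsets for transcript length and 4 with length offsets and block. In rescue against knockdown, 0 higher became 1 with DESeq2 or length offsets and 3 with length offsets and block, and 2 lower became 1 with RLE scaling, total counts or limma voom, 4 with only the 2 groups compared, and 6 with a replicate block, with or without length offsets. In rescue against control, 20 higher became 32 with no filter on low counts, 31 with a replicate block and 32 with length offsets and block, and 4 lower became 8 with length offsets and block. Leaving out each library in turn gave 10 to 27 higher and 0 to 1 lower in knockdown against control, 0 to 5 lower in rescue against knockdown, and 12 to 32 higher and 3 to 10 lower in rescue against control. Over these omissions the median of complex I in knockdown against control was 0.11 to 0.38, all genes called in rescue against knockdown numbered 1196 to 2364, and UGT2B28 in knockdown against control was −1.46 to 0.16 (adjusted p 0.118 to 0.871). No single-gene call changed direction in any setting. Same-numbered libraries had correlations of −0.04 to 0.08 in their deviations from group means, and not every library correlated best with its own number. These values cannot tell whether same-numbered libraries also shared a preparation.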
